A study of Mus musculus with 8 samples.

Results

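The nuclear genes for the proteins of the mitochondrial ribosome were followed in mouse fat-cell cultures that had received DMSO or DoxSa. They were chosen by symbol as all protein coding genes named Mrpl or Mrps followed by a number, which gave 78 genes of the 22962 in the table (17060 of them protein coding), 49 with a large subunit symbol (Mrpl) and 29 with a small subunit symbol (Mrps). The cells were the stromal vascular fraction of gonadal fat from wild-type mice, the progenitor, immune and vascular cells that remain once floating adipocytes are taken off, and the labels call them mature adipocytes after differentiation. On day 6 they received the solvent DMSO (4 libraries) or DoxSa (4 libraries). The labels do not spell DoxSa out, while the series title concerns 1-deoxysphingolipids, sphingolipids without the hydroxyl group that serine gives to the usual ones. The labels give no dose, hours of exposure, animal age or sex. Nothing says that the 4 libraries of a group are separate cultures or animals. The p-values therefore rest on a spread between libraries that may be technical.

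Mitochondria carry their own ribosome, which makes only the few proteins encoded in mitochondrial DNA, core subunits of the respiratory chain and of ATP synthase. Its ribosomal RNAs are transcribed in the organelle, whereas all of its proteins are encoded in the nucleus, made in the cytosol and imported. Some of these proteins have bacterial counterparts and others are particular to mitochondria. White adipocytes build many new mitochondria as they differentiate, and the ribosome of the organelle has to be built with them.

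Total reads per library lay between 39213008 and 41365861, and 18726 to 19108 genes had a value above 0. Adipocyte markers were abundant in every library, with a summed level of 11400 to 11800 FPKM over 11 genes in DMSO and 11400 to 12000 FPKM in DoxSa (FPKM, reads scaled to the length of the gene and to the depth of the library). Macrophage markers were abundant too, at 5270 to 6150 FPKM over 9 genes in DMSO and 5870 to 6320 FPKM in DoxSa, and none of these 9 was at 0. Libraries labelled mature adipocyte thus held macrophage transcripts, and fewer cells of a type and less RNA per cell cannot be told apart in such bulk samples. Stromal progenitor and fibroblast markers summed to 3140 to 3560 FPKM over 8 genes in every library, mostly from the collagen genes Col1a1 and Col3a1. The progenitor markers Dpp4 and Pi16 were near 0, with means of 0.0431 and 0.144 FPKM in DMSO and 0.03 and 0.0973 FPKM in DoxSa. Mesothelial markers summed to 11.6 to 17.3 FPKM over 5 genes, nearly all from Krt19, and 6 endothelial genes to at most 2.17 FPKM.

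None of the 78 mitochondrial ribosomal protein genes passed the test of DoxSa against DMSO. All 78 had a mean of at least 0.5 FPKM and entered the test, and limma on log2(FPKM + 1), with Benjamini-Hochberg adjustment over 12060 genes and a threshold of 0.05, called 0 of them higher and 0 lower. Over all tested genes, 712 (5.90%) were called, 468 (3.88%) higher and 244 (2.02%) lower. At an unadjusted p under 0.05 there was 1 member (1.28%) against 19.8% of all tested genes, and the groups did not overlap in 1 member against 12.5% of all tested genes. Voom, a limma fit on the reads recovered from the FPKM steps, also called 0 members, with 1 at an unadjusted p under 0.05 and a smallest adjusted p of 0.203.

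The members' log2 fold changes (DoxSa minus DMSO) were small in both directions, from -0.12 to 0.12, with a median of 0.007 and quartiles of -0.033 and 0.038. The median had no stable sign: it was -0.006 after scaling to equal FPKM sums, -0.009 after median-of-ratios and -0.020 after quantile normalization, settings that moved the median of all genes to 0.001, -0.002 and -0.006. All tested genes had a median of 0.012 and quartiles of -0.041 and 0.069, and 80.7% of them lay within the members' range. There were 41 members above 0 and 37 below. The 95% intervals of the members ran from -0.26 to 0.27 at their outermost. For 76 of 78 members (97.4%) the interval lay inside a 1.2-fold change in either direction, against 80.8% of all tested genes, and for 78 of 78 inside 1.3-fold. The precision of single genes therefore left room for changes under 1.2-fold, and Mrpl58 and Mrps33 were the 2 whose upper bound passed that size.

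**Figure D1:**
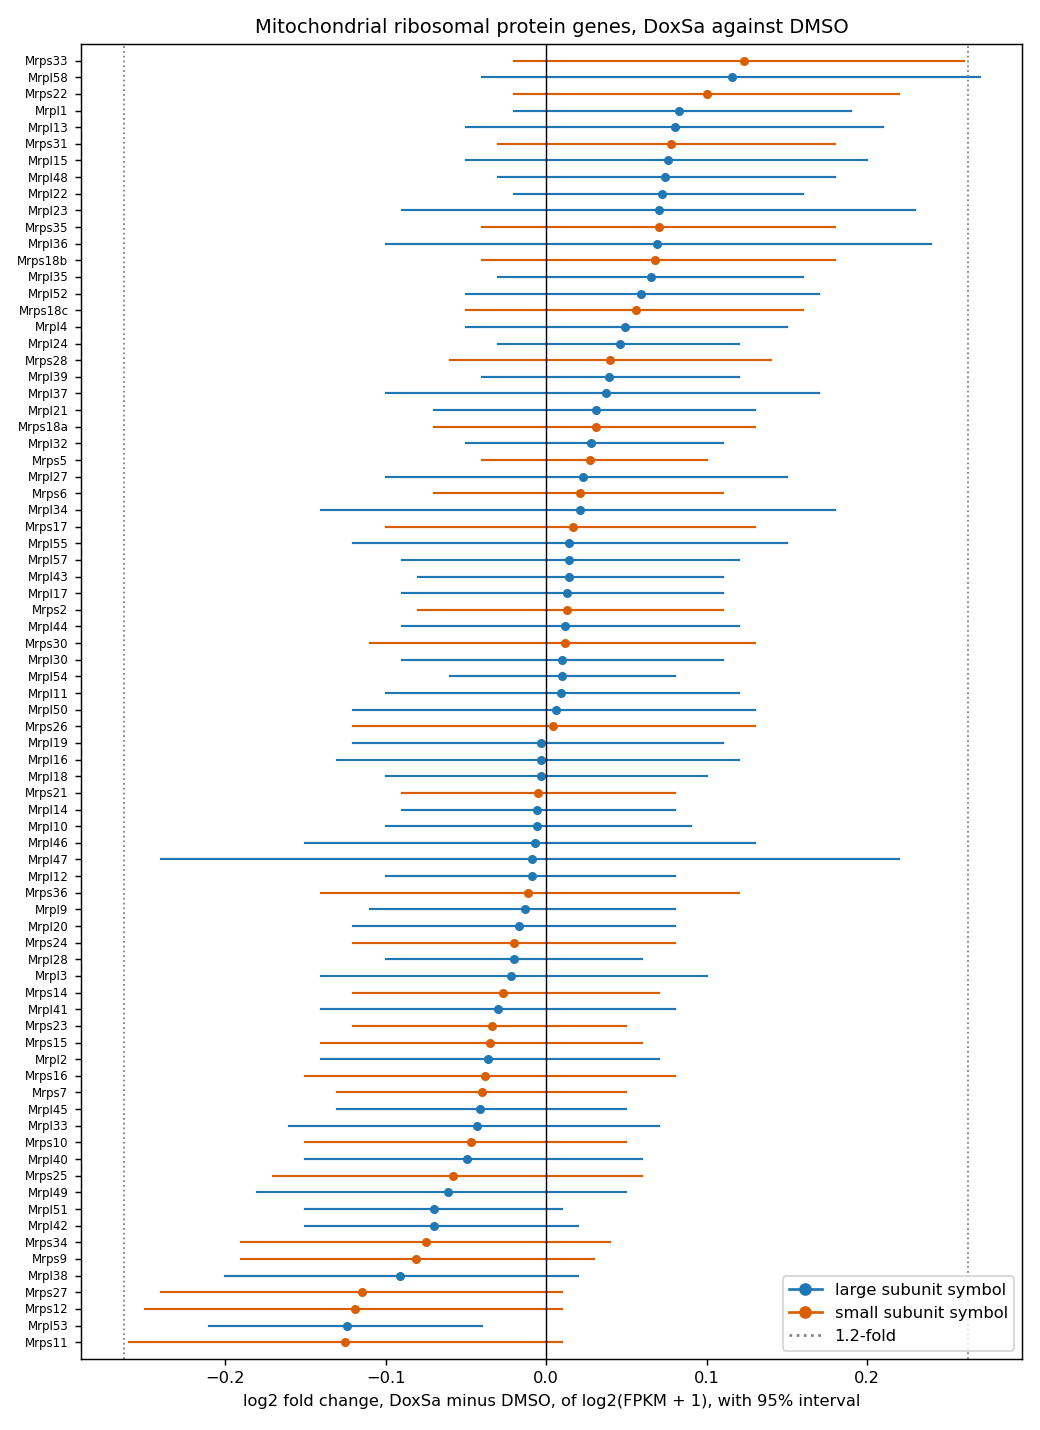
Log2 fold change (DoxSa minus DMSO, on the log2(FPKM + 1) scale, horizontal axis) of each of the 78 genes, ordered from the lowest to the highest, with its 95% interval as a bar; blue marks the 49 large subunit symbols and orange the 29 small subunit symbols, and dotted lines mark 1.2-fold. The points run from -0.12 to 0.12, the colours are mixed along the order, and of the 78 bars the one of Mrpl53 does not cross 0.

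Large and small subunit genes both had medians close to 0. The 49 large subunit genes had a median log2 fold change of 0.010, with 27 above 0 and 22 below, and the 29 small subunit genes a median of -0.005, with 14 above and 15 below. The difference of the medians, large minus small, was 0.015, and it was -0.003 under quantile normalization and 0.035 without DMSO 2. It became 0.023 when Mrps18a and Mrps30, which structures place in the large subunit, were moved there and Mrps36 was left out. Mrps36, now known as a subunit of the oxoglutarate dehydrogenase complex, was the member that lacked the term mitochondrial translation in the table's annotation. No test was made on these medians, since genes of a complex are not replicates.

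Per library, the mean log2(FPKM + 1) of the large subunit genes minus that of the small subunit genes took the values -0.256, -0.216, -0.242 and -0.257 for the 4 DMSO libraries and -0.221, -0.209, -0.252 and -0.232 for the 4 DoxSa libraries, in the order of their numbers. The groups overlapped: DoxSa 3 was lower than DMSO 2 and DMSO 3. The summed level of the large subunit genes lay between 1207 and 1293 FPKM and that of the small subunit genes between 808.0 and 861.3 FPKM. Together the 78 genes took 0.488% to 0.512% of all FPKM, from 104666 to 112013 recovered reads in a library.

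The members' mean level moved more between libraries of 1 group than between the groups. The members' mean deviation from their average over the 8 libraries, in log2, came to -0.008, 0.022, 0.028 and -0.048 for the DMSO libraries and to 0.037, 0.018, -0.019 and -0.030 for the DoxSa libraries. DMSO 4 was the lowest library for 23 of the 78 members, and DoxSa 1 was above the gene's own mean for 59 of them. DMSO 4 was also low over all tested genes, at -0.037, and over the cytosolic ribosomal proteins, at -0.082, and it had the smallest sum of FPKM (411620). The part of this library-wide shift in the members' values was not tested. Without DMSO 4, 0 members were called and their median was -0.012.

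**Figure D2:**
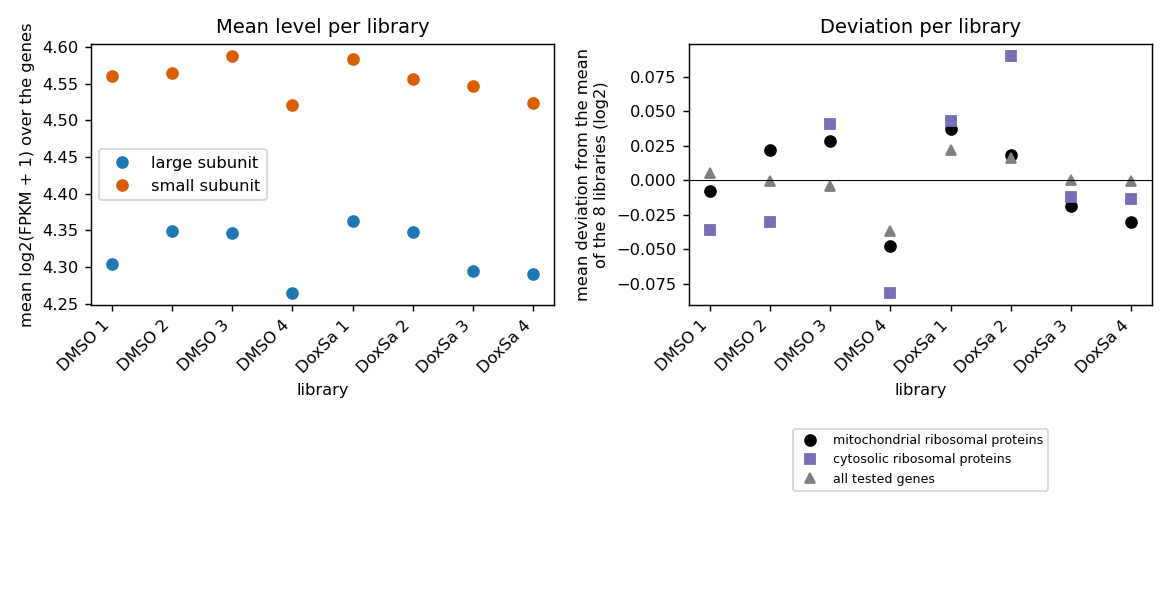
Left, the mean log2(FPKM + 1) over the 49 large subunit genes (blue) and the 29 small subunit genes (orange) in each of the 8 libraries; right, the mean deviation in log2 of the 78 members (circles), of the cytosolic ribosomal proteins (squares) and of all tested genes (triangles) from their average over the 8 libraries. The small subunit mean is above the large subunit mean in all 8 libraries, and DMSO 4 is the lowest library in all 3 gene groups on the right.

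Of single members, Mrpl53 (Entrez 68499), a large subunit protein particular to mitochondria, had the smallest p. The 4 DMSO libraries had 40.2, 38.3, 38.0 and 38.5 FPKM and the 4 DoxSa libraries 35.7, 37.0, 36.1 and 33.3 FPKM. Every DoxSa library was below every DMSO library, and it was the 1 member of 78 of which this held. The log2 fold change was -0.12 (SE 0.04), with a limma adjusted p = 0.0932, which did not pass the threshold. Quantile normalization, which moved the median of all genes to -0.006, gave -0.15 with an adjusted p of 0.0451. Over the 19 alternative settings the adjusted p ran from 0.0451 to 0.21. In the GENCODE annotation of GRCm38 its gene overlaps Ccdc142os and Gm42688, and as no source used here gives the strand setting of the counting, reads of overlapping genes cannot be told apart.

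The other 3 of the 4 members with the lowest fold change belonged to the small subunit, and their groups overlapped. Mrps11, a counterpart of a bacterial protein of the platform that holds the messenger, stood at 19.7, 18.3, 15.5 and 17.4 FPKM in DMSO and 16.4, 15.7, 15.7 and 16.5 FPKM in DoxSa (log2 fold change -0.12, SE 0.06, adjusted p = 0.282 by limma). The DMSO libraries were spread more widely (SD 1.76) than the DoxSa libraries (SD 0.428), and DMSO 3 was below all 4 DoxSa libraries. Mrps12, the decoding-centre protein whose bacterial counterpart carries streptomycin resistance mutations, was at 20.6, 18.0, 18.0 and 17.8 FPKM in DMSO and 17.5, 17.0, 18.2 and 15.4 FPKM in DoxSa (log2 fold change -0.12, limma adjusted p = 0.289). DMSO 1 was high and DoxSa 4 low, and the other 6 libraries lay between 17.0 and 18.2 FPKM; without either of the 2 its log2 fold change was -0.07. Mrps27, a pentatricopeptide repeat protein of the small subunit, was at 14.8, 13.9, 13.4 and 12.7 FPKM in DMSO and 13.7, 11.6, 12.4 and 12.6 FPKM in DoxSa (log2 fold change -0.12, limma adjusted p = 0.290). Here DoxSa 1 was above the 2 lower DMSO libraries.

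At the high end, Mrps33, a small subunit protein particular to mitochondria, was at 20, 18.7, 18.2 and 15.8 FPKM in DMSO and 19.1, 21.1, 20.2 and 18.7 FPKM in DoxSa (log2 fold change 0.12, SE 0.06, limma adjusted p = 0.324). DMSO 4 was below the other 7 libraries, and the group means were 18.2 and 19.8 FPKM. Mrpl58, a peptidyl-tRNA hydrolase related to release factors that frees stalled ribosomes, was at 9.38, 8.81, 7.49 and 8.34 FPKM in DMSO and 10.4, 8.81, 9.38 and 8.62 FPKM in DoxSa (log2 fold change 0.12, SE 0.07, limma adjusted p = 0.392). DoxSa 1 was the highest library and DMSO 3 the lowest. Mrps22, a small subunit protein particular to mitochondria, was at 26.6, 26.9, 23.9 and 27.2 FPKM in DMSO and 29.4, 29.4, 27.9 and 25.7 FPKM in DoxSa (log2 fold change 0.10, limma adjusted p = 0.329). Mrpl1, the protein of the stalk at the tRNA exit site, was at 4.77, 5.14, 5.07 and 5.46 FPKM in DMSO and 5.38, 5.83, 5.27 and 5.40 FPKM in DoxSa (log2 fold change 0.08, limma adjusted p = 0.387). In each of these 4 genes at least 1 DMSO library was above at least 1 DoxSa library.

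**Figure D3:**
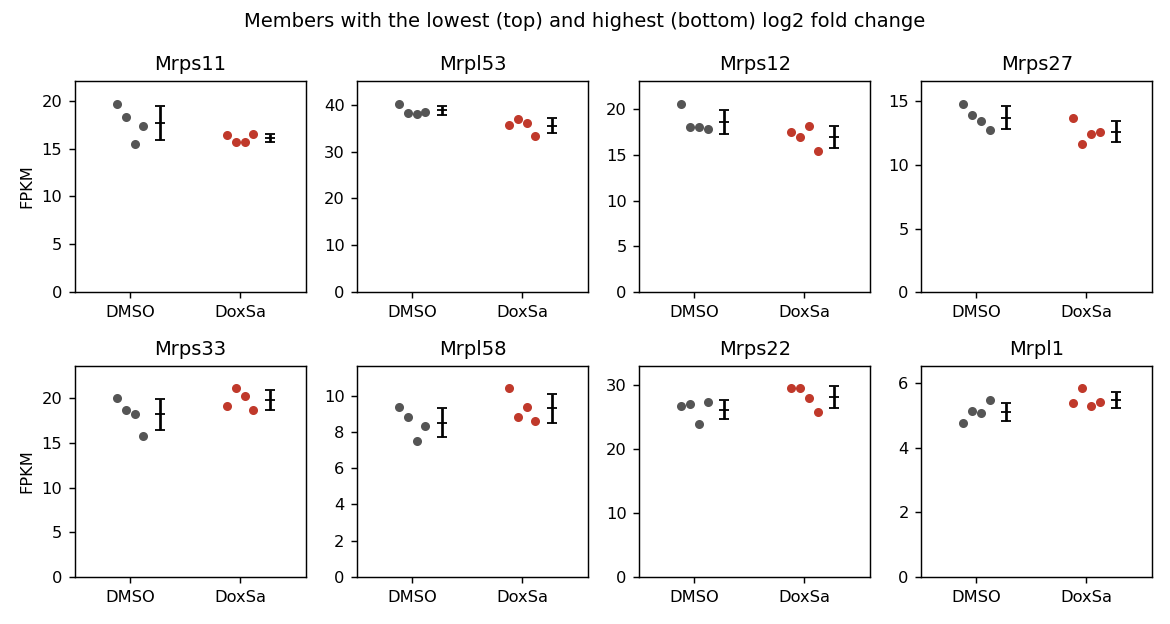
FPKM (vertical axis, from 0) of the 4 genes with the lowest log2 fold change (top row) and the 4 with the highest (bottom row); each point is 1 library, numbered 1 to 4 from left to right, and the bar beside it is the group mean with its SD (n = 4). The groups are apart in Mrpl53 and overlap in the other 7.

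A panel of members with known places in the ribosome gave no called change either. At the stalk of the large subunit that recruits translation factors, Mrpl12 was at 82.5 ± 2.94 FPKM with DMSO and 82.0 ± 3.84 with DoxSa (mean ± SD, n = 4), and Mrpl10, the protein on which it sits, at 29.5 ± 0.988 and 29.4 ± 1.71 FPKM. Mrpl3, near the peptidyl transferase centre, was at 4.92 ± 0.334 and 4.83 ± 0.259 FPKM. Mrpl13, a core protein with a bacterial counterpart, was at 58.4 ± 4.41 and 61.8 ± 4.0 FPKM (log2 fold change 0.08, limma adjusted p = 0.498). These 4 differed between groups by less than the SD of the DMSO libraries. Mrpl45, which ties the ribosome to the inner membrane at the exit tunnel, was at 12.7 ± 0.480 and 12.3 ± 0.454 FPKM, and Mrpl44, which has a ribonuclease III fold, at 16.3 ± 0.879 and 16.4 ± 0.822 FPKM. Mrpl33 and Mrpl36, small proteins with bacterial counterparts, were at 98.5 ± 6.77 and 95.5 ± 5.08 FPKM and at 22.7 ± 2.15 and 23.8 ± 2.51 FPKM. In none of these 8 genes did the adjusted p of limma fall below that of Mrpl13.

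In the small subunit, Mrps2, Mrps5 and Mrps7 have bacterial counterparts and build the body and head. Mrps2 was at 13 ± 0.187 FPKM in DMSO and 13.2 ± 0.803 FPKM in DoxSa, Mrps5 at 20.9 ± 0.375 and 21.3 ± 0.313 FPKM and Mrps7 at 31.8 ± 1.24 and 30.9 ± 1.19 FPKM. Mrps14 and Mrps15, of the same class, were at 14.8 ± 0.685 and 14.5 ± 0.623 FPKM and at 48.6 ± 2.81 and 47.3 ± 1.87 FPKM. The 3 mitochondrial copies of bacterial protein S18 were followed side by side. Mrps18a was at 39.7 ± 2.34 and 40.6 ± 1.39 FPKM, Mrps18b at 14.5 ± 0.671 and 15.3 ± 0.948 FPKM and Mrps18c at 63.4 ± 3.13 and 65.9 ± 3.84 FPKM, with log2 fold changes of 0.03, 0.07 and 0.06. Their order in FPKM, Mrps18c above Mrps18a above Mrps18b, held in all 8 libraries. In mean recovered reads Mrps18a (1409) was above Mrps18c (1318) and Mrps18b (959), at gene lengths of 864, 502 and 1587 bases. By these recovered values, the FPKM order of Mrps18c and Mrps18a depended on the division by length. Of the proteins particular to mitochondria, Mrps34 was at 45.3 ± 3.27 and 42.9 ± 2.28 FPKM and Mrps35 at 5.81 ± 0.113 and 6.15 ± 0.483 FPKM. Mrps30, which structures place in the large subunit, was at 21.8 ± 1.39 and 22 ± 1.35 FPKM, and Mrps36 at 44.7 ± 3.65 and 44.3 ± 2.84 FPKM. The smallest limma adjusted p of these 12 genes was that of Mrps34, 0.495.

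Members with the table's KEGG term Ribosome and members without it had nearly the same median. The term, which covers proteins with bacterial counterparts, marked 43 members (28 large, 15 small) with a median log2 fold change of 0.009. The other 35 had a median of 0.006, and not all of them lack a bacterial counterpart: Mrps18b is 1 of these. In the large subunit the medians were 0.011 with the term and 0.006 without. In the small subunit they were -0.027 (6 of 15 above 0) and 0.008 (8 of 14 above 0). In the table's annotation, the term for the large subunit marked all 49 large subunit symbols and also Mrps18a and Mrps30. The term for the small subunit marked 27 of the small subunit symbols and also Mrpl42, which thus carried both terms.

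The levels of the members spanned 32.3-fold, although the finished ribosome holds most of these proteins in equal number. Mean FPKM over the 8 libraries ran from 3.41 (Mrps25) to 110.0 (Mrps21, a short protein with a bacterial counterpart). After Mrps21, the highest were Mrpl33 at 97.0, Mrpl12 at 82.2, Mrpl42 at 75.6, Mrpl52 at 65.2, Mrps18c at 64.6 and Mrps16 at 62.2 FPKM. Next to Mrps25, the lowest were Mrpl19 at 4.09, Mrpl4 at 4.27, Mrpl14 at 4.29 and, in the small subunit, Mrps35 at 5.98 and Mrps10 at 6.89 FPKM. Some neighbours in this order, such as Mrpl4 and Mrpl14, did not differ beyond their spread between libraries. Others did, such as Mrpl33 at 89.1 to 107 FPKM and Mrpl12 at 78.4 to 86.4 FPKM over the 8 libraries. The median was 18.7 FPKM over the large and 21.9 FPKM over the small subunit genes.

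This order followed the length by which the authors' FPKM were divided. That length, recovered from the FPKM steps, ran from 412 to 8707 bases with a median of 1506. It is the smallest length that makes the reads of a gene whole in all 8 libraries. A gene's true length and reads could therefore be a common multiple of those recovered. Across the 78 genes, log2 FPKM fell with log2 length (Pearson's r = -0.85, Spearman's rho = -0.81), whereas log2 reads did not follow it closely (0.17 and 0.14). The genes share the same libraries and are not independent, and since length is the divisor of FPKM, part of the relation is built in. The 11 members of at least 4000 bases had 3.41 to 8.89 FPKM and a median of 1387 reads, and the 23 members under 1000 bases had 13.1 to 110.0 FPKM and a median of 1266 reads. Long and short members thus had nearly the same number of reads and differed in the divisor. Recovered reads per gene ran from 232 (Mrpl47) to 3279 (Mrpl12) in the mean of the 8 libraries, a 14.1-fold span. They were at least 189 in any library, and both low values are those of Mrpl47. How much of the long lengths the cells' transcripts use was not tested. Comparisons of DoxSa with DMSO are within a gene, and the divisor is the same in both.

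**Figure D4:**
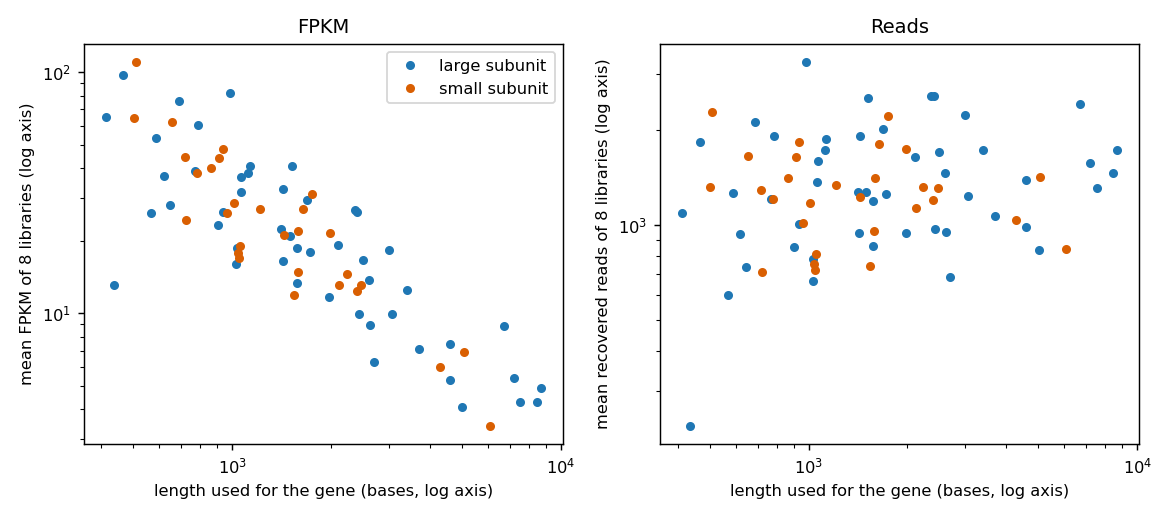
Mean FPKM (left) and mean recovered reads (right) of the 78 genes over the 8 libraries against the length used for the gene, all on log axes; blue marks large and orange small subunit symbols. FPKM falls steadily with length while reads show no such slope, and the lowest point on the right is Mrpl47.

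The spread between libraries was low, with a median coefficient of variation of 5.47% in DMSO and 5.04% in DoxSa, against 6.14% and 5.52% over all tested genes. Mrpl39 varied least in DMSO (1.01%, and 3.79% in DoxSa) and Mrpl14 least in DoxSa (1.22% in both groups). Mrpl47 varied most, at 13.1% and 14.9%. It had the fewest recovered reads and overlaps Actl6a and Ndufb5, and the part of either in its spread was not tested. Its level was 13.6, 12.2, 15.3 and 11.4 FPKM in DMSO and 15.4, 13.2, 10.6 and 13.2 FPKM in DoxSa, so that its groups overlapped almost fully. In the GENCODE annotation, 42 of the 78 members overlap another gene, among them Mrpl46 and Mrps11, which overlap each other there.

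Promoters of the members were read because nuclear genes for mitochondrial proteins are known targets of NRF1, of the ETS factor GABPA and of YY1. RefSeq promoters (GRCm38.p6, 250 bases before to 50 after the start, both strands searched) were at hand for 69 of the 78 genes, 75 promoters in all. The NRF1 letters GCGCATGCG stood in 9.33% of them, against 1.75% of all 32851 promoters and 3.55% of the 12255 promoters of tested genes. The ETS letters CCGGAAGT stood in 16.0%, against 3.89% and 8.14%, and the YY1 letters AAGATGGC in 16.0%, against 2.75% and 4.49%. The E-box CACGTG stood in 9.33% (7.15% and 10.1%), and TGATGNAA, the composite element bound by ATF4, in 0 of 75 (3.97% and 2.19%). At least 1 of the first 3 motifs was in the promoters of 29 of the 69 genes (42.0%), and in 38.7% of the members' promoters against 15.2% of the promoters of tested genes. The NRF1 letters overlap themselves on the opposite strand where they stand as GCGCATGCGC. A match describes the letters and not binding.

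The 150 bases before the start are shown for 4 members, 5′ to 3′ on the gene's strand, with matches of the 5 motifs in capitals. Mrpl32 and Mrpl39 show the NRF1 letters, Mrps11 the YY1 letters on the opposite strand and Mrps27 the ETS letters on the opposite strand. The last 2 are among the 4 members with the lowest fold change. In that group Mrps12 holds the YY1 letters, Mrps27 holds them too outside the bases shown, and Mrpl53 holds none of the 5 motifs. Among the 4 members with the highest fold change, Mrps22 holds the ETS letters and Mrps33, Mrpl58 and Mrpl1 hold none. Any link between letters and fold changes was not tested.
Mrpl32, chr13:14613038-14613187, minus strand: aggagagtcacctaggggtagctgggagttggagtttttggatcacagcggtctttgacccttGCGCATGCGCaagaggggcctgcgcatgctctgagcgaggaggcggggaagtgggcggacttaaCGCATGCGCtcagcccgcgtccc
Mrpl39, chr16:84735245-84735394, minus strand: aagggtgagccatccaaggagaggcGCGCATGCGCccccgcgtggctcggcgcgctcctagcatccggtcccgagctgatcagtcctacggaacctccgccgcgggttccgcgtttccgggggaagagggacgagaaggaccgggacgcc
Mrps11, chr7:78782981-78783130, plus strand: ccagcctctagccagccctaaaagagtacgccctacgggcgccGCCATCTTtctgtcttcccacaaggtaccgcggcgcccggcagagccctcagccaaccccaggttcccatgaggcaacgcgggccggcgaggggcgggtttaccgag
Mrps27, chr13:99344636-99344785, plus strand: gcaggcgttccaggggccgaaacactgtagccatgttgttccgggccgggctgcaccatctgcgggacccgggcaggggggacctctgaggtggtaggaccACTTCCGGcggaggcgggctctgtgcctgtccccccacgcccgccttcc

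Genes with these letters had medians on both sides of 0. The 7 genes with the NRF1 letters (6 large, 1 small) had a median log2 fold change of 0.028, the 12 with the ETS letters (8 large, 4 small) 0.009 and the 12 with the YY1 letters (6 large, 6 small) -0.030. Those without each motif had medians of -0.003, -0.003 and 0.006. Mrpl32, a large subunit protein that the m-AAA protease matures, was at 38.4 ± 1.17 FPKM with DMSO and 39.2 ± 1.45 with DoxSa, and Mrpl39 at 18.0 ± 0.182 and 18.6 ± 0.704 FPKM (SD, n = 4).

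Some members start head to head with a neighbour. Counted were protein coding genes on the opposite strand whose start lay at most 1000 bases upstream of the member's start. Opposite genes that start downstream of it, and so overlap it, were left out. Mrpl46 and Mrps11, which overlap in GENCODE, are thus not counted, although their RefSeq promoters place the starts head to head. In the GENCODE annotation of GRCm38, 18 of the 78 members (23.1%, 12 large and 6 small) had such a partner, against 10.3% of 11262 tested protein coding genes. The median distance between the starts was 82 bases. Mrps12 lies 172 bases from Sars2, the mitochondrial seryl-tRNA synthetase, Mrpl32 75 bases from the proteasome gene Psma2, Mrps27 81 bases from Ptcd2 and Mrpl49 59 bases from Fau, which encodes a cytosolic ribosomal protein. Of the 16 partners that were tested, limma called 0, with a median log2 fold change of 0.038. Mitd1, 66 bases from Mrpl30, had the highest, 0.17 (adjusted p = 0.201).

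The rest of the mitochondrial translation machinery was read from lists of genes by role. The 5 mitochondrial ribosomal proteins with other symbols were all uncalled by limma, with a median log2 fold change of -0.027. Dap3, a GTP-binding small subunit protein, was at 10.7 ± 0.155 FPKM in DMSO and 10.5 ± 0.455 FPKM in DoxSa, and Chchd1 had the 1 unadjusted p under 0.05 of the 5 (0.0489, log2 fold change 0.10). Of the assembly factors of the ribosome, such as the methyltransferase Nsun4 and the GTPase Noa1, limma called 0 of 29 (3 at an unadjusted p under 0.05; median 0.032). Of the translation factors, such as the elongation factor Tufm, it called 0 of 17 (1 unadjusted; median -0.024), and of the mitochondrial aminoacyl-tRNA synthetases 0 of 17 (3 unadjusted; median -0.004). Voom called 0 in each of these 4 lists. Without DMSO 1, Rpusd4 of the assembly factors was called higher (adjusted p = 0.0309), and without DMSO 4, Cars2 of the synthetases was called lower (0.0134); over the 19 alternative settings their adjusted p reached 0.443 and 0.395.

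Among 25 genes for mitochondrial transcription and RNA handling, limma called 1 higher and 0 lower (4.0%, against 5.90% of all tested genes), with a median of 0.008. The called gene was Pnpt1, the polynucleotide phosphorylase that degrades RNA in mitochondria, at 10.3, 9.05, 9.85 and 10.8 FPKM in DMSO and 12.2, 13.1, 12.2 and 10.9 FPKM in DoxSa. All 4 DoxSa libraries were above all DMSO libraries, DoxSa 4 by little (log2 fold change 0.25, SE 0.06, limma adjusted p = 0.0397). It was called in 8 of the 19 alternative settings, with adjusted p from 0.0179 to 0.143, and the call was lost without DMSO 1, DMSO 2, DMSO 3, DoxSa 1, DoxSa 2 or DoxSa 3. Tfam, which packages mitochondrial DNA, was at 7.01 ± 0.242 and 7.38 ± 0.278 FPKM and the RNA polymerase gene Polrmt at 3.09 ± 0.434 and 3.05 ± 0.145 FPKM, both uncalled.

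The transcription factors of mitochondrial biogenesis gave 0 calls by limma among 10 tested of 15 listed, with 1 at an unadjusted p under 0.05. Nrf1 was at 1.16 ± 0.0594 FPKM in DMSO and 1.28 ± 0.0489 FPKM in DoxSa, Gabpa at 10.9 ± 0.784 and 11.7 ± 0.826 FPKM and Yy1 at 12.5 ± 0.114 and 12.7 ± 0.228 FPKM. Ppargc1a, the coactivator of biogenesis in brown fat and muscle, was under the minimum, at 0.325 and 0.283 FPKM. Myc, chosen after its values were seen, was at 15.5 ± 2.45 and 19.2 ± 1.16 FPKM (log2 fold change 0.30, limma adjusted p = 0.0757). Voom called Myc higher (adjusted p = 0.0282), as did the fits without DMSO 1 or without DMSO 3, and its adjusted p over the alternatives ran up to 0.244.

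The 13 mitochondrially encoded mRNAs, the templates of this ribosome, had a median log2 fold change of -0.176, with 10 of 13 below 0; limma called 0 and 4 had an unadjusted p under 0.05. The median was -0.099 without DMSO 4, -0.115 without DMSO 3 and -0.118 under quantile normalization. These 4 genes are named after their values were seen. COX3 was at 80.6, 115, 119 and 81.3 FPKM in DMSO and 64.4, 72.6, 65.7 and 80.7 FPKM in DoxSa (log2 fold change -0.46, limma adjusted p = 0.0600). COX2 was at 99.8, 129, 135 and 171 FPKM in DMSO and 98.0, 96.6, 94.1 and 104 FPKM in DoxSa (log2 fold change -0.42, limma adjusted p = 0.0709). CYTB had a log2 fold change of -0.25 (limma adjusted p = 0.0785) and ATP6 one of -0.68 (0.137), the latter with DMSO 3 at 154 FPKM and the other DMSO libraries at 59.6 to 68.3 FPKM. In 3 of the 13 mRNAs, COX1, CYTB and ATP6, every DoxSa library was below every DMSO library (23.1%, against 12.5% of all tested genes without overlap). COX1, the most abundant and also named after its values were seen, was at 14500 ± 421 FPKM in DMSO and 13600 ± 318 FPKM in DoxSa (log2 fold change -0.09, limma adjusted p = 0.29). The DMSO libraries were far apart in COX2, COX3 and ATP6. The mean deviation of the 13 in log2 took the values -0.206, -0.093, 0.315 and 0.467 for the DMSO libraries and lay between -0.174 and -0.028 in DoxSa, and ATP8 stood at 142 FPKM in DMSO 4 against 10.1 to 23.5 FPKM in the other DMSO libraries. Voom called COX2, COX3 and CYTB lower (adjusted p 0.0253, 0.0198 and 0.0234), and over the 19 alternatives their adjusted p ran up to 0.249, 0.230 and 0.306. Without DMSO 1 the same 3 were called, without DMSO 3 ATP6 (0.0162) and without DMSO 4 COX3 (0.0357). Nuclear copies nearly identical to mitochondrial genes can share their reads, so these values are uncertain. The mRNAs that fell most, COX2, COX3, ATP6, ATP8 and ND6, had DMSO means of only 47.0 to 134 FPKM. ND3 and ND4L were low too, with log2 fold changes of -0.06 and 0.26. ND1, ND2, ND4, ND5, CYTB and COX1 had DMSO means of 1110 to 14500 FPKM and log2 fold changes from -0.25 to 0.08. The part of shared reads in these levels was not tested.

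The proteins of the cytosolic ribosome, the larger relative that makes all nuclear-encoded proteins, showed 0 calls by limma and voom in 80 tested genes, with 6 (7.50%) at an unadjusted p under 0.05 by limma. Their median log2 fold change was 0.056, with 76 of 80 above 0, beside 0.012 for all genes. Under quantile normalization the median was 0.031, with 64 of 80 above 0. In single libraries their mean deviation ran from -0.082 (DMSO 4) to 0.090 (DoxSa 2), and the 2 DoxSa libraries 3 and 4 were at -0.012 and -0.014, below DMSO 3 at 0.041. The 2 groups of libraries overlapped in this measure as they did in the mitochondrial ribosomal proteins.

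**Figure D5:**
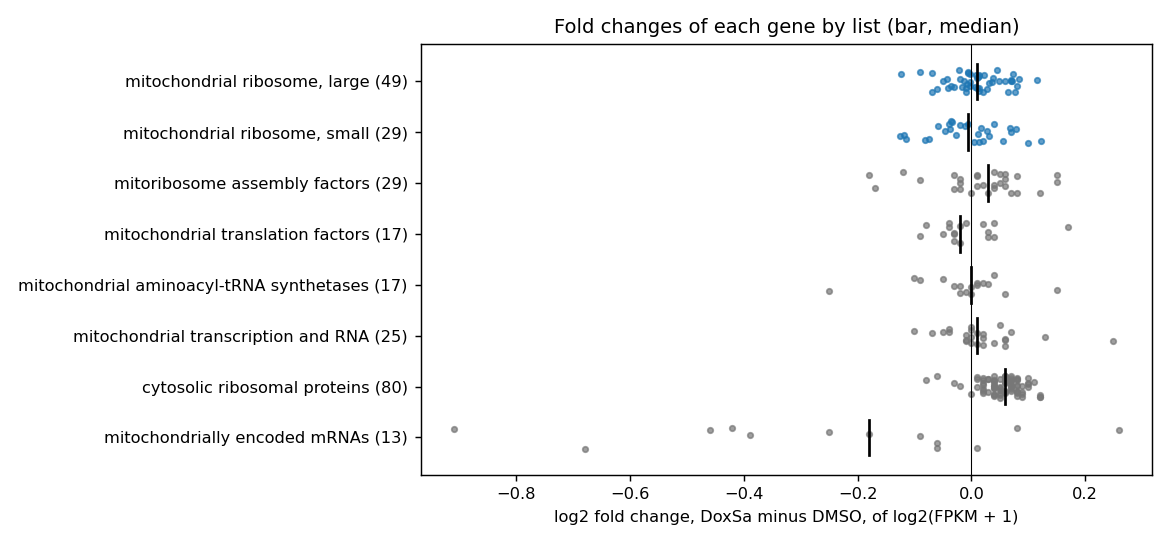
Log2 fold change (DoxSa minus DMSO, on the log2(FPKM + 1) scale) of each tested gene in 8 gene lists, with the number tested in brackets, points spread vertically for sight and a black bar at the median. Mitochondrial ribosomal protein genes (blue) lie within -0.12 to 0.12, Pnpt1 is the point at 0.25 among the mitochondrial transcription and RNA genes, and the mitochondrially encoded mRNAs reach from -0.91 to 0.26.

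Cell type markers were read beside these values. Of 11 adipocyte markers, limma called 1 lower (9.09%, against 2.02% of all tested genes called lower) and 0 higher, 4 had an unadjusted p under 0.05, and 10 were below 0 with a median log2 fold change of -0.082. The called gene was Retn, which encodes the adipokine resistin, at 387 ± 20.8 FPKM with DMSO and 337 ± 3.93 with DoxSa (SD, n = 4; log2 fold change -0.20, adjusted p = 0.0151). Among the uncalled ones, the glucose transporter Slc2a4 had a log2 fold change of -0.15, the lipase Lipe -0.11, the lipid droplet protein Plin1 -0.10 and Fabp4, the 1 marker above 0, 0.03. Of 9 macrophage markers it called 2 higher (22.2%, against 3.88% of all tested genes called higher) and 0 lower, 4 had an unadjusted p under 0.05, and 8 were above 0 with a median of 0.091. The called ones were the lipopolysaccharide co-receptor Cd14 (0.36, adjusted p = 0.0154) and Ptprc, the pan-leukocyte phosphatase CD45 (0.26, adjusted p = 0.0301). Ptprc lost its call when any 1 of the 4 DoxSa libraries was left out, and its adjusted p reached 0.124 over the 19 alternatives. Of 6 tested stromal markers, limma called 1 lower (16.7%, against 2.02% of all tested genes called lower) and 0 higher. In this list 4 were below 0, and the median was -0.055. Pdgfrb, the receptor of stromal progenitors and mural cells, was the called one (-0.23, adjusted p = 0.00383), while Ly6a, a surface antigen of progenitors, had a log2 fold change of 0.31 (adjusted p = 0.183), Col3a1 0.04 and Pdgfra -0.01. The 1 tested mesothelial marker, Krt19, was at 16.6, 16.4, 16.1 and 16.8 FPKM in DMSO and 11.1, 14.3, 15.4 and 14.7 FPKM in DoxSa. It was uncalled (log2 fold change -0.24, limma adjusted p = 0.113), as was the 1 tested endothelial marker, Pecam1 (0.12, limma adjusted p = 0.483). The part of the cell type markers in the levels of the mitochondrial ribosomal proteins was not tested.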

How the data were processed

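RNA of 8 libraries of cultured mouse fat cells, 4 with DMSO and 4 with DoxSa, was sequenced; groups and replicate numbers were read from the sample titles. The submitters' processing notes name HISAT2, HTSeq and GRCm39 for the reads; their versions, the annotation and the strand setting are not stated there. The deposited values are FPKM, reads divided by the length of the gene and the depth of the library, in 1 table with annotation terms. Such values are relative, so abundant genes that rise lower all others.

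Low FPKM values are multiples of what 1 read adds, from which library totals and gene lengths were recovered. With these, 12060 of 12060 tested genes came out as whole reads in all 8 libraries (within 0.001). Each length was chosen to make its gene's reads whole. The count therefore cannot tell a gene's true length and reads from a common fraction of them. The test was limma 3.58.1 in R 4.3.3 (lmFit, eBayes with trend) on log2(FPKM + 1) for 12060 genes (mean over the libraries not under 0.5 FPKM), all 8 libraries, no covariate, Benjamini-Hochberg adjustment over all of them and a threshold of 0.05. Intervals are 95% intervals of that fit. Other steps used Python 3.11.15, numpy 2.4.6, pandas 2.3.3 and matplotlib 3.10.9. On simulated data with 200 changed genes among 12060, 86.6% of genes changed 1.3-fold in the comparison of DoxSa with DMSO were called, and 12 of 11860 unchanged genes. The simulation gave every gene the same dispersion and no library-wide shift, unlike these libraries, so its shares do not carry over directly. Fold changes understate those of low genes.

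The members and the gene lists were chosen with earlier results of these data known. Named members were the called ones, the 4 lowest and 4 highest fold changes, the 3 highest and 3 lowest levels of each subunit and a panel by role; other lists gave their called genes. Promoters came from RefSeq and neighbours from GENCODE, both of GRCm38, another build than that of the reads, so they serve as description only. Alternatives were 2 other pseudocounts, other filters, 3 scalings, no trend, library weights, voom on recovered reads, a replicate block and leaving out each library. Same-numbered libraries of the 2 groups did not deviate together, and the numbers were not taken as pairs.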

Additional observations from a re-analysis of the deposited data

Results flagged for a closer look

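In the 4 DMSO libraries, Mrpl14 was at 4.23 FPKM in DMSO 4 and between 4.32 and 4.34 FPKM in the other 3, a gap of 0.843 of the group's range, above Dixon's critical value for 4 samples. The values are close together, with a coefficient of variation of 1.22%.

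Mrps12 was at 20.6 FPKM in DMSO 1 and between 17.8 and 18.0 FPKM in the other 3 DMSO libraries, a gap of 0.909 of the range. Without DMSO 1 the log2 fold change of Mrps12 was -0.07 in place of -0.12. In all, 76 groups of 4 libraries were read in this way and 2 stood out, where chance gives about 1 in 20. These groups did not take in all 78 members, so the 2 are not a full list. Among members not read in this way, Mrpl54 was at 50.7 FPKM in DoxSa 4 and at 53.9 to 54.3 FPKM in the other DoxSa libraries. Mrps24 was at 31.1 FPKM in DoxSa 4 and at 27.2 to 27.8 FPKM in the other DoxSa libraries.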

How the results depend on the processing

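Under 19 alternative settings, 0 members were called higher in any and 1 lower in 1, Mrpl53 under quantile normalization (-0.15, adjusted p = 0.0451, from 0.0451 to 0.21 over the settings). As no member was called with a direction, a change of sign was not counted as a reversal: 33 members changed sign in some setting and 45 kept 1 sign, and no member passed 0.18 in either direction. Scaling and filters moved the median of all genes by at most 0.018. Without the filter on low values, calls fell to 158 higher and 108 lower, and those of Pnpt1, Retn, Cd14 and Ptprc were lost (0 in each of the 3 lists). Equal sums gave 411 higher and 277 lower, median-of-ratios scaling 388 and 289, quantile normalization 384 and 316, beside 468 and 244. Pnpt1 was also lost (0 calls) with median-of-ratios scaling, quantile normalization, no trend and the replicate block, and the macrophage markers then had 1 call under each of the first 2. Among mitochondrially encoded mRNAs, 1 was called lower with a mean of at least 2 FPKM, equal sums, quantile normalization and the replicate block, and 3 with voom, which also called 1 biogenesis factor. With the replicate block, 415 genes were called higher and 209 lower and 0 members; the same-number correlations of deviations were -0.0581, 0.0519, -0.0989 and 0.0654. Leaving out 1 library at a time, all genes called ran from 234 to 486 higher (lowest without DoxSa 2) and from 152 to 234 lower, members from 0 to 0, the members' median from -0.012 to 0.018 and large minus small from 0.001 to 0.035. The ranges were 1 to 3 for macrophage markers higher, 1 to 2 for adipocyte markers lower, 0 to 3 for mitochondrially encoded mRNAs lower, 0 to 1 for aminoacyl-tRNA synthetases lower and 0 to 1 higher for each of the transcription and RNA genes, assembly factors and biogenesis factors. The cause of these changes was not tested. Members had at least 189 recovered reads in any library. How much of their spread is counting error was not tested.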
